A study of Rattus norvegicus with 15 samples.

Results

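The cytosolic ribosomal protein genes encode the protein subunits of the ribosome that translates nuclear messenger RNAs. Members were taken by name from the array annotation, as symbols that start with Rpl or Rps and a digit, together with Rplp0, Rplp1, Rplp2 and Rpsa, and without S6 kinase genes, pseudogenes and paralogs with an l after the number. The rule matched 79 names on 196 probes. The name Rps19bp1, a binding protein and no subunit, was set apart and was not well above background on enough arrays to be tested. The remaining 78 genes were all tested, out of 17055 tested features in all. Of these 78 genes, 46 belong to the large subunit and 32 to the small subunit.

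The samples were hepatocytes of female Wistar rats, sorted into 2c, 4c and 8c fractions after staining of their DNA with a Hoechst dye. A diploid cell that has not replicated its DNA is 2c. There were 5 independent experiments, each with 1 sample per fraction, so each group had 5 samples (n = 5) and there were 15 one-colour arrays. The rats were 12, 14, 6, 5 and 6 weeks old in experiments 1 to 5, the 3 fractions of an experiment sharing their age. The labels name no treatment, and they do not give how many rats stood behind an experiment. DNA content alone does not separate a tetraploid cell from a diploid cell after replication, nor do the labels say how doublets were gated.

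Ribosomal protein genes are transcribed at high rates in most cells, and their products are assembled with ribosomal RNA in near-equal numbers in the nucleolus. Their messenger RNAs usually begin with a terminal oligopyrimidine tract, a C followed by a run of pyrimidines, through which translation responds to mTOR signalling. Hepatocytes carry large numbers of ribosomes because they secrete much of the plasma protein.

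Levels are given as the log2 processed signal minus the 75th percentile of the array, taken over probes well above background on all arrays, so a level of 0 is that percentile. A log2 difference of 1 is a doubling. All values are therefore relative to the other transcripts of the same sample, and neither the RNA of a cell nor the number of its ribosomes was measured. Between 39.5% and 47.4% of the probes were well above background per array, and the number of arrays limits the precision. All 9 hepatocyte markers, albumin among them, were well above background on all 15 arrays, and 1 of them was lower in 8c than in 2c. Among the markers of other liver cells, 6 of 7 tested Kupffer cell markers, 5 of 5 stellate cell markers 2 of 6 sinusoidal endothelial markers and 1 of 2 cholangiocyte markers were lower in 8c than in 2c. In 4c against 2c the counts were 5, 5, 1 and 1, and none of these markers passed between 8c and 4c. The summed log2 level of the Kupffer cell markers lay between -0.44 and 3.84 in the 2c samples, between -2.72 and -0.73 in the 4c samples and between -3.15 and -0.91 in the 8c samples. The summed level of the stellate cell markers lay between -0.17 and 3.31, between -3.82 and -0.92 and between -4.55 and -0.62 in the same order. The corresponding sum for the endothelial markers lay between -1.68 and 0.68, between -3.05 and -1.72 and between -3.06 and -1.85. Col1a1, Dcn, Marco and the cholangiocyte markers Krt19 and Krt7 were not well above background on any array. The part of these cells in the results below was not tested. Transcripts of pancreatic acinar cells had a median level between -0.998 and 4.85 on 6 arrays, namely the 2c and 8c samples of experiment 1, all samples of experiment 2 and the 8c sample of experiment 3. It lay between -8.47 and -7.18 on the other 9 arrays. The median deviation of the ribosomal protein genes from their own means lay between -0.21 and 0.12 on those 6 arrays and between -0.21 and 0.28 on the other 9. In a mixed fraction, fewer cells of a type and less RNA per cell cannot be told apart.

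The promoters are shown first, since the members are known for a shared kind of transcript start. Whether that start bears on their variation across the arrays was not tested. The RefSeq table for the GRCr8 assembly, which is not the rn4 assembly of the array, held promoters for 63 of the 78 genes. Each line gives 25 bases before and 25 bases from the annotated start on, 5′ to 3′ on the strand of the gene. Capitals mark a run of at least 5 pyrimidines that starts with C within 5 bases of the annotated start. The lines are a choice of genes, most of them with such a run, and do not give its share among the members.
Rplp0, chr12:46718366-46718415, minus strand: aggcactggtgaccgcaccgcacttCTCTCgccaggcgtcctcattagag
Rplp1, chr8:71290848-71290897, minus strand: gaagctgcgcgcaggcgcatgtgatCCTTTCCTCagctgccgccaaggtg
Rpl10, chrX:157205825-157205874, plus strand: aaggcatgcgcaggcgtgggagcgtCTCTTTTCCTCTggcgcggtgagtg
Rpl14, chr8:129163595-129163644, plus strand: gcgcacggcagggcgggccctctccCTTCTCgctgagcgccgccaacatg
Rpl29, chr8:115947618-115947667, plus strand: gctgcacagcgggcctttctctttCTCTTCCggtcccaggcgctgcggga
Rps18, chr20:4933720-4933769, plus strand: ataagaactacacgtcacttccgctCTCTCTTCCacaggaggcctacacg
Rps4y2, chr4:183000888-183000937, plus strand: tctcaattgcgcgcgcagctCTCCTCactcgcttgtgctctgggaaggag
Rps6, chr5:106420516-106420565, minus strand: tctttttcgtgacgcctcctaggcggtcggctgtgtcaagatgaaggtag

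Such a pyrimidine start was found in 41 of the 63 genes, which is 65.1%, against 17.1% of the 33365 promoters in the table. It was looked for only near the annotated start, which may differ from the start used in these cells. The line of Rps6, for example, holds a run of pyrimidines further upstream that does not count. Here and for the motifs below a gene counts once if any of its promoters matches, while the share over the table is of single promoters. Of the members only Rps27a has 2 promoters, and 1 of them has such a start. The sequence CTTTCC, searched on both strands of the 300 bases around the start, was present in 49.2% of the members and 26.4% of all promoters. CTTCCGG, the core of sites for ETS-family factors, was present in 31.7% and 8.77%. AAGATGGC, a part of the YY1 motif, was present in 7.94% and 3.18%. TATAAA was present in 11.1% and 14.2%. A match describes the letters and no site. The median log2 difference between 8c and 2c was 0.14 over the 41 genes with a pyrimidine start, between -0.04 and 0.30. It was 0.15 over the 22 genes without one near the annotated start, between 0.03 and 0.24. It was 0.17 over the 15 genes that the table does not hold. The ranges of these 3 sets overlap.

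Most ribosomal protein genes had a slightly higher value in 8c than in 2c hepatocytes, but no single gene passed the test. Rpl14 and Rpl30, large subunit genes, were among the 3 with the largest differences. No ribosomal protein gene passed the test between 8c and 2c (limma, adjusted p under 0.05 after Benjamini and Hochberg over all features), against 2.37% of all features. Of the members, 75 of the 78 genes had a positive difference, against 44.7% of all features. The median difference was 0.15 on the log2 scale, a ratio of 1.11, against -0.02 over all features. Without adjustment 28 genes had p under 0.05, all of them higher in 8c, and 6.37% of all features were higher at that p. In 38 of the 78 genes, 48.7%, the 8c sample exceeded the 2c sample in 5 of 5 experiments, against 7.19% of all features. No member was lower in 8c in 5 of 5 experiments. These genes varied together across the arrays, so their counts are not counts of independent observations. The 780 other features with a mean level of at least 3 had a median difference of 0.06 and 66.9% of them were positive. The 73 members with such a level had a median of 0.15, and 72 of them were positive.

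**Figure D1:**
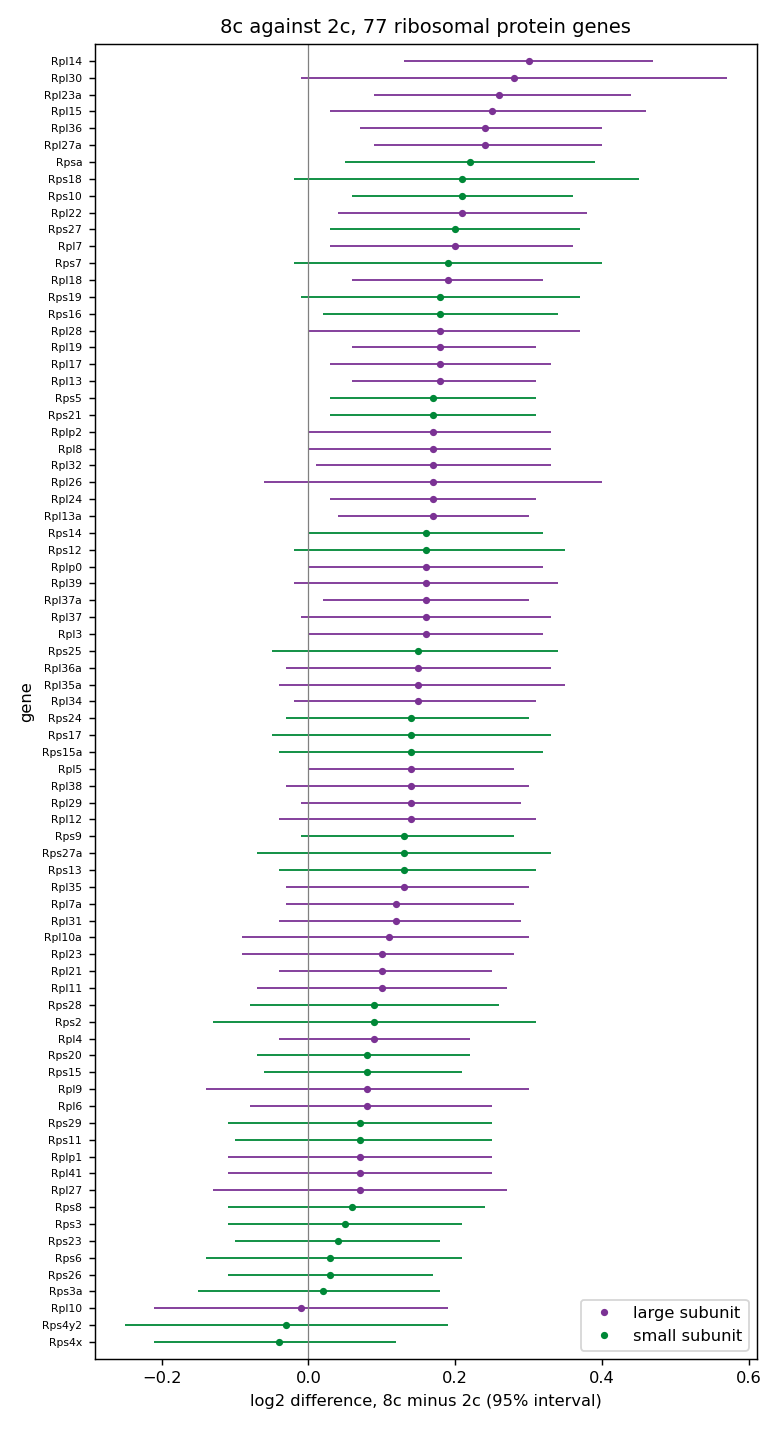
The log2 difference of 8c minus 2c for 77 of the 78 ribosomal protein genes, ordered by size, with its 95% interval from the limma fit (5 samples a group), coloured by subunit. The points lie between -0.04 and 0.30, and 3 of them are below 0.

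The intervals of the fit were narrow, but they hold for the scaling used here. Other scalings moved the median of the list, as given with the alternatives below. The 95% interval lay within 0.5 log2 units of 0 for 77 of the 78 genes, and the highest upper bound of all, that of Rpl30, was 0.57, a ratio of 1.48. The median standard error was 0.08, against 0.12 over all features. The smallest difference of any feature that passed this comparison was 0.26. Large subunit genes had a median of 0.16 and 45 of 46 were positive. Small subunit genes had a median of 0.13 and 30 of 32 were positive. Without adjustment 21 large subunit genes and 7 small subunit genes had p under 0.05. The difference between the subunits was not tested.

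Among the large subunit genes, Rpl14 had levels of 4.26, 4.61, 4.43, 4.56 and 4.62 in the 2c samples of experiments 1 to 5. Its levels were 4.69, 4.81, 4.51, 4.80 and 4.67 in 4c, and 4.80, 4.76, 4.73, 4.95 and 4.75 in 8c. Every 8c value lay above every 2c value, while the 4c values overlapped both groups. The 8c minus 2c difference was 0.30 (95% interval 0.13 to 0.47, adjusted p = 0.0741 by limma), and all 3 probes of the gene were positive, at 0.30, 0.35 and 0.27.

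Rpl30 also had a difference of 0.28, with a wide interval from -0.01 to 0.57 (adjusted p = 0.357 by limma). Its 2c levels were 2.85, 3.72, 3.75, 3.69 and 3.73, its 4c levels 3.59, 3.74, 3.36, 3.81 and 3.74, and its 8c levels 3.63, 3.97, 3.72, 3.99 and 3.82. The 2c sample of experiment 1 stood apart and lay below all others. The other 2 probes of Rpl30 gave smaller differences, 0.11 and 0.09.

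The stalk proteins Rplp0, Rplp1 and Rplp2 recruit translation factors to the large subunit. Rplp0 had levels of 5.88, 5.94, 5.83, 6.05 and 6.05 in 2c, of 5.89, 6.02, 5.91, 6.18 and 6.05 in 4c, and of 5.87, 6.00, 6.19, 6.36 and 6.13 in 8c. The groups overlapped, and the 8c sample was higher than 2c in 4 of the 5 experiments. The differences were 0.16 for Rplp0, 0.07 for Rplp1 and 0.17 for Rplp2, with adjusted p values of 0.322, 0.753 and 0.334 by limma. Rpl5 and Rpl11, which with 5S ribosomal RNA bind Mdm2 when ribosome assembly fails, differed by 0.14 and 0.10. Their 95% intervals, -0.00 to 0.28 and -0.07 to 0.27, reached 0. Rpl3, which lies near the peptidyl transferase centre, differed by 0.16 (95% interval 0.00 to 0.32). Rpl10, which is among the last proteins to join the large subunit, differed by -0.01 and was higher in 8c in 2 of the 5 experiments.

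Among the small subunit genes, Rpsa, also known as a laminin receptor, had levels of 4.29, 4.42, 4.30, 4.61 and 4.61 in 2c, of 4.34, 4.50, 4.78, 4.63 and 4.57 in 4c, and of 4.46, 4.60, 4.65, 4.83 and 4.76 in 8c. The 8c sample was higher than the 2c sample in 5 of 5 experiments, although the groups overlapped. The difference was 0.22 (95% interval 0.05 to 0.39, adjusted p = 0.218 by limma). Rps19, the gene most often mutated in Diamond-Blackfan anaemia, differed by 0.18 (95% interval -0.01 to 0.37). Rps27a, which is made as a fusion with ubiquitin, differed by 0.13 (95% interval -0.07 to 0.33). Rps6, the substrate of the S6 kinases, differed by 0.03 (95% interval -0.14 to 0.21), with 2c levels of 3.71, 3.71, 3.75, 3.72 and 3.79 and 8c levels of 3.62, 3.76, 3.70, 3.96 and 3.81. Its groups overlapped, and 3 of 5 experiments had the higher value in 8c. Rps4x and Rps4y2 encode versions of the same protein and had the smallest differences, -0.04 and -0.03.

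Rpl3 and Rps6 were each read by a single probe of 60 bases, shown because no second probe bears on their values. Positions are on rn4, and the part of the transcript under a probe is not stated.
Rpl3, chr7:118314786-118314845, minus strand: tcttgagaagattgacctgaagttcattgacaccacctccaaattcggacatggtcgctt
Rps6, chr5:106165769-106165828, minus strand: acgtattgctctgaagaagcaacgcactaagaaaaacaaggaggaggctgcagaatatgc

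Probes of the same gene mostly gave like differences. Of the 193 member probes that were tested, 185 were higher in 8c, none passed and the median was 0.13. In the 57 genes with several tested probes the spread between probes had a median of 0.08 and reached 0.30 in Rpl7. Probes differed in sign in 4 genes, Rpl10, Rpl21, Rpl7 and Rpl7a, which are named after their values were seen. Ribosomal protein genes have many near-identical processed copies. Probes of Rpl13a, Rpl21, Rpl37a, Rps20 and Rps27 lay on more than 1 rn4 chromosome, so their values may include such copies. A further 192 tested features outside the rule, whose descriptions name a ribosomal protein, gave a median of 0.07, with 142 of them positive and none passing.

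The difference between 8c and 2c was positive in each experiment but unequal in size. The median over the 78 genes was 0.12, 0.10, 0.08, 0.34 and 0.06 in experiments 1 to 5, against -0.05, 0.00, -0.02, 0.02 and -0.02 over all features. The number of genes with the higher value in 8c was 66, 77, 55, 74 and 56. Experiment 4, of the youngest rats, stood apart. Without it the median was 0.089, against -0.03 over all features, and 67 of the 78 genes stayed positive. At an unadjusted p under 0.05 by limma, 10 genes were higher, against 5.57% of all features. The median was 0.080 within slide 1, which held experiments 1 and 2 and the 2c and 4c samples of experiment 3, and 0.194 within slide 2, which held the 8c sample of experiment 3 and experiments 4 and 5. The differences of experiment 3 that involve 8c thus lie across slides. It was 0.161 without the 6 arrays with acinar transcripts. No member reached an unadjusted p under 0.05 in these 3 smaller fits, in which 3.52%, 3.25% and 3.04% of all features were higher at that p.

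**Figure D2:**
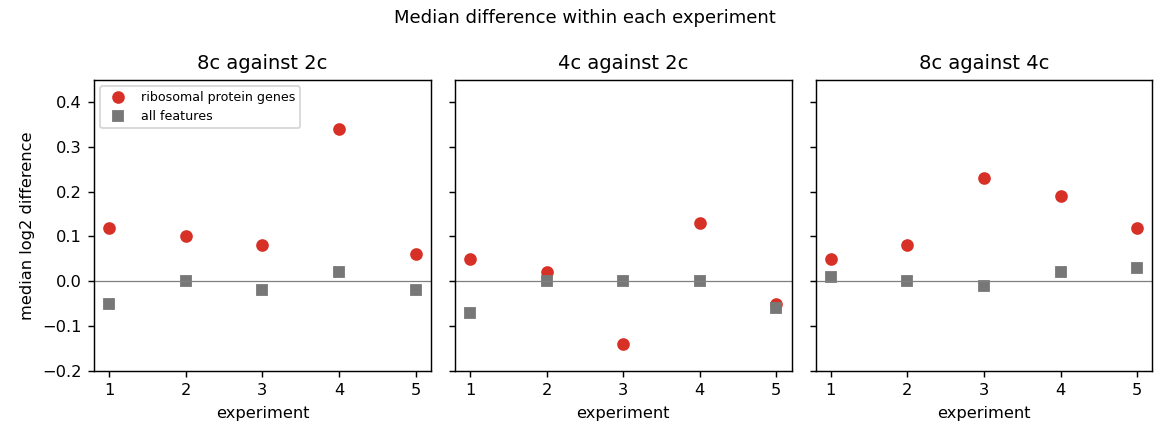
Median log2 difference within each of the 5 experiments for the 78 ribosomal protein genes (circles) and for all 17055 features (squares), in 3 comparisons. The circles lie above 0 in every experiment for 8c against 2c and 8c against 4c, and on both sides of 0 for 4c against 2c.

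Between 4c and 2c no member passed, against 1.27% of all features, and 42 of the 78 genes, 53.8%, were positive, against 43.0% of all features. The median difference was 0.01, against -0.03 over all features. Without adjustment 4 members had p under 0.05, all of them higher in 4c. Of the 17055 features 990 were higher in 4c at that p and 1717 lower, 15.9% in either direction. The medians in experiments 1 to 5 were 0.05, 0.02, -0.14, 0.13 and -0.05, so the direction differed between experiments. The median was -0.023 within slide 1, 0.049 within slide 2 and -0.035 without the 6 arrays with acinar transcripts. Rps18, a protein of the head of the small subunit, had the largest difference, 0.28 (95% interval 0.04 to 0.51, adjusted p = 0.246 by limma). Its levels were 4.45, 4.97, 4.93, 5.43 and 5.07 in 2c, 5.16, 5.20, 5.09, 5.52 and 5.28 in 4c, and 5.06, 5.09, 5.31, 5.37 and 5.08 in 8c. The 2c sample of experiment 1 was the lowest of the 15, and the groups overlapped. Rpl14 and Rpl8 followed with 0.20 and 0.19. At the other end were Rpl10 at -0.16, Rps29 at -0.14 and Rps6 at -0.14, each lower in 4c in 4 of the 5 experiments. Their intervals, -0.36 to 0.03, -0.32 to 0.03 and -0.31 to 0.04, reached 0.

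Between 8c and 4c no member passed, against 0.651% of all features, and 75 of the 78 genes were positive, against 51.0% of all features. The median difference was 0.14, against 0.00 over all features. The 780 other features with a mean level of at least 3 had a median of 0.05, and 67.2% of them were positive. Of the 73 members with such a level 71 were positive, with a median of 0.14. Without adjustment 18 members were higher at p under 0.05, against 4.55% of all features. In 49 of the 78 genes the 8c sample was above the 4c sample in 5 of 5 experiments, against 8.82% of all features. The medians in experiments 1 to 5 were 0.05, 0.08, 0.23, 0.19 and 0.12. The comparisons with 2c and 4c share the 8c samples, so they are no independent repeats. The median was 0.115 within slide 1 and 0.145 within slide 2, and 0.187 without the 6 arrays with acinar transcripts. Without experiment 3 the median was 0.115 and 3 members were higher at p under 0.05 without adjustment, against 4.39% of all features. The largest differences were those of Rps25 at 0.25 (95% interval 0.05 to 0.44), Rpl15 at 0.23 (0.01 to 0.44) and Rpl39 at 0.22 (0.04 to 0.40), with adjusted p values of 0.537, 0.629 and 0.563 by limma. Rps25, a small subunit protein, had levels of 3.66, 3.85, 3.34, 3.97 and 3.87 in 4c and 3.75, 4.04, 3.88, 4.19 and 4.08 in 8c. The groups overlapped, although 8c was the higher in each experiment. The lowest were Rps4y2 at -0.11, Rps18 at -0.07 and Rpl8 at -0.02.

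**Figure D3:**
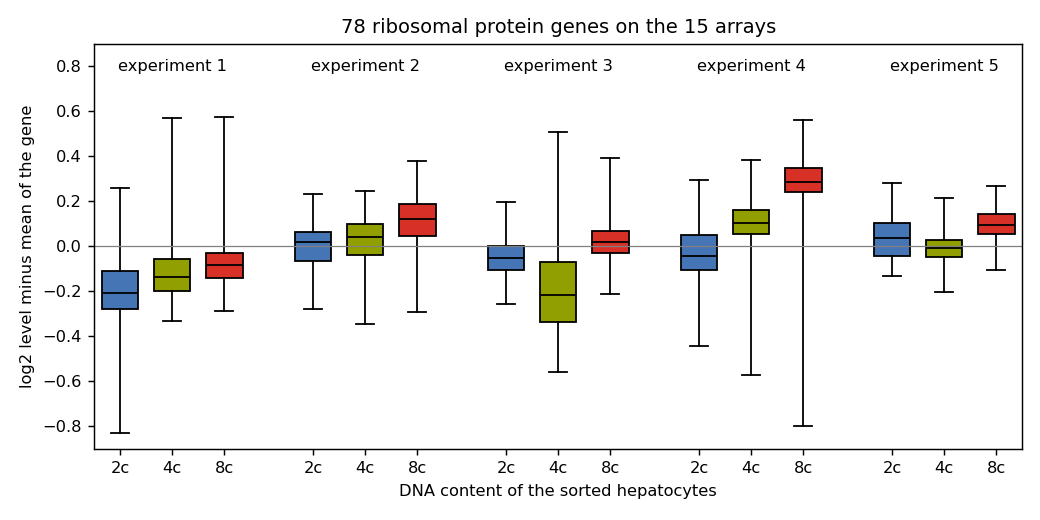
Log2 levels of the 78 ribosomal protein genes on each of the 15 arrays, as deviations from the mean of each gene. Boxes span the quartiles with the median as a line and whiskers reach the lowest and highest gene; the median lies between -0.21 and 0.28.

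The members varied less over the arrays than features well above background as a whole, and they varied together. The SD over 15 arrays had a median of 0.16 for the members, between 0.09 and 0.42, against 0.25 for the 13384 features well above background on all arrays. Over the 15 arrays, which share experiments and scaling, the correlation between pairs of members had a median of 0.65 and 94.6% of the 3003 pairs were above 0. No such correlation is given for other features. A member had a median correlation of 0.80 with the median of the other members, and 57 of the 78 were above 0.7. Rps4y2 was the exception, at -0.80, followed by Rps2 at 0.17, Rpl19 at 0.26 and Rps4x at 0.27, which were singled out after their values were seen.

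The experiments differed from each other for 22 of the 78 genes (moderated F test of limma, adjusted p under 0.05), against 37.3% of all features. Of the 22, 14 were large subunit genes and 8 small subunit genes. Experiment 1 was the lowest for 51 of the 78 genes and experiment 4 the highest for 52. The share over all features is not given for these counts. The median deviation of the members was -0.14, 0.06, -0.08, 0.13 and 0.04 in experiments 1 to 5. Over all features it was -0.03, 0.01, 0.02, 0.01 and -0.01. Experiments differ in age and partly in slide, and these cannot be told apart from the experiment itself. The share over all features is not given for the following counts either, so they do not separate the members from the whole table. The count of 22 ranged from 4 without experiment 1 to 33 without experiment 3. It was 3 with no filter on dim probes and 31 with normexp background correction. It was 12 or fewer without any 1 array of experiment 1 or 2, without the 4c array of experiment 4 or the 8c array of experiment 5, and without experiment 1, 2, 4 or 5 as a whole.

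Rps4y2 had the largest spread between experiments. Its levels were -1.09, -0.78 and -0.77 in 2c, 4c and 8c of experiment 1, -1.40, -1.57 and -1.64 in experiment 2, -1.15, -0.84 and -0.96 in experiment 3, -1.79, -1.92 and -2.15 in experiment 4, and -1.40, -1.31 and -1.45 in experiment 5. Experiments 1 and 3 were high and experiment 4 low in all 3 fractions (adjusted p = 0.000801 by limma). The probe lies on rn4 at chr4:185978262-185978321. Rpl29, a large subunit gene, had experiment means of 4.12, 4.39, 4.40, 4.69 and 4.64 (adjusted p = 0.00359 by limma). Rpl3 had experiment means of 3.72, 3.64, 3.91, 4.23 and 4.07 (adjusted p = 0.00395 by limma). Both were highest in experiment 4.

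**Figure D4:**
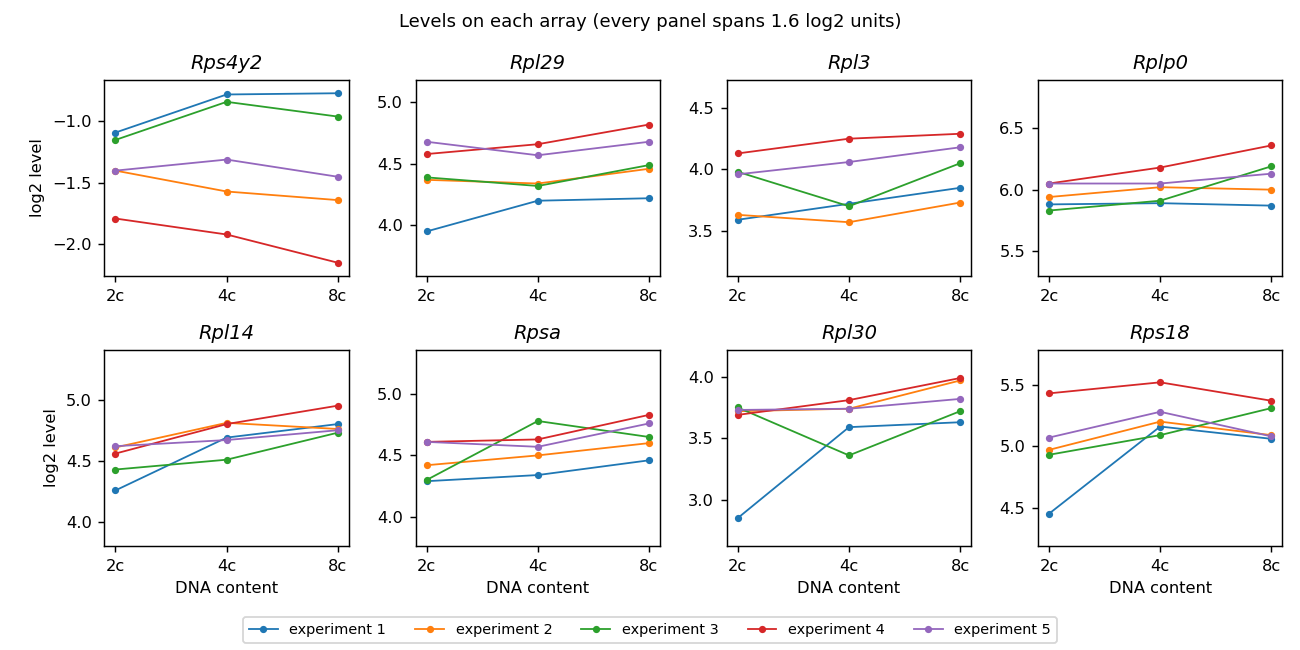
Log2 levels of 8 ribosomal protein genes in the 2c, 4c and 8c samples, one line per experiment. Every panel spans 1.6 log2 units. The lines of Rps4y2 separate by experiment, while the 8c points of Rpl14 all lie above its 2c points.

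Other genes of the ribosome and its control were measured as lists. None of the 20 tested genes of the translation machinery with a terminal oligopyrimidine start passed a comparison, and 16 were positive between 8c and 2c with a median of 0.08. The 34 tested ribosome biogenesis genes, which make and process ribosomal RNA, had a median of 0.03 with 21 positive and none passing. The 14 genes of the mTOR and S6 kinase axis had a median of 0.00 with 7 positive and none passing. The 70 mitochondrial ribosomal protein genes, whose products translate mitochondrial messages, had a median of 0.06 with 52 positive and none passing. The 3 tested ribosomal protein paralogs had a median of 0.09 with all 3 positive and none passing. Between 8c and 4c the medians of these lists, in the same order, were 0.09, 0.04, 0.07, 0.07 and 0.10, again with no gene passing. Between 4c and 2c they were -0.02, -0.01, -0.10, -0.02 and -0.04.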

How the data were processed

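The authors deposited Agilent scanner files that give spot intensity, not in logs. The processed signal used here is background-subtracted and detrended, per the file headers, and not normalized between arrays. Feature Extraction is version 11.5.1.1 per the file headers and 10.7.3.1 per the submitters' processing notes. Control spots (4259 of 62976) and outlier spots (264 to 539 per array) were left out, and spots of a probe were averaged. Signals were taken to log2, less the 75th percentile of the array, computed from 16211 probes that were well above background on every array. Probes well above background on at least 5 arrays were tested, and the brightest represented a gene. limma 3.58.1 (R 4.3.3) fitted all 15 arrays with terms for DNA content and, as a block, for the experiment, because fractions of an experiment share a number and an age in the labels. Tests were two-sided, adjusted over 17055 features. Residuals of samples of 1 experiment (deviations from the group means) correlated above 0.1 in 14 of 15 pairs, with a median of 0.59. Between samples of different experiments and fractions 16 of 60 pairs were above 0.1, with a median of -0.13. Tables were made with Python and pandas. The procedure was tested on simulated data.

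Members, context lists and tests were chosen with earlier results of these data known. Members were named if they passed, had 1 of the 3 largest or smallest differences of a comparison, had 1 of the 3 largest SDs over experiments, or were among Rplp0, Rplp1, Rplp2, Rpsa, Rps6, Rps27a, Rpl3, Rpl5, Rpl11 and Rps19. Alternatives covered scaling, background correction, filters, blocks, slides, the deposited value table, acinar transcripts and leaving out samples. The labels call the experiments independent and do not say how many rats each used. The values of 1 member are not reported here by name, and it is counted in the totals.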

Additional observations from a re-analysis of the deposited data

Results flagged for a closer look

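Values were flagged where 1 of 5 samples or experiments stood apart from the other 4 by a larger share of the range than Dixon's 95% critical value allows. Of 144 sets of 5 values, 11 were flagged, and chance flags about 1 in 20.

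The 2c sample of experiment 1 was low in 2 genes. Rpl30 was at 2.85 there, with the other 2c samples between 3.69 and 3.75, and Rps19 was at 4.47, with the others between 4.76 and 4.88.

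Experiment 4 had the highest 8c minus 2c difference in 3 sets. The median over the members was 0.34, with the other experiments between 0.06 and 0.12. Rpl15 was at 0.53, with the others between 0.15 and 0.20, and Rps27a at 0.56, with the others between -0.04 and 0.09.

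For 4c minus 2c, Rps18 was at 0.71 in experiment 1, with the others between 0.09 and 0.23, and Rpsa was at 0.48 in experiment 3, with the others between -0.04 and 0.08.

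Experiment 3 had the highest 8c minus 4c difference in 4 genes, and its 8c sample was on the other slide than its 4c sample. Rps18 was at 0.23, with the others between -0.20 and -0.10, and Rps25 was at 0.54, with the others between 0.09 and 0.22. Rps4x was at 0.32, with the others between -0.02 and 0.08, and Rps6 was at 0.40, with the others between 0.07 and 0.16.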

How the results depend on the processing

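The 78 ribosomal protein genes gave 0 calls in each comparison under the 34 alternatives, except 1 call between 8c and 2c with the median as the scale. Without adjustment, 28, 4 and 18 members had p under 0.05 in 8c against 2c, in 4c against 2c, and for 8c against 4c. For 8c against 2c this count of higher members ranged from 0 within a slide (3.52% and 3.25% of all features) to 51 with the 75th percentile over all probes (12.5% of all features, whose median was 0.056), against 28 and 6.37% as reported. The median difference of the list stayed above 0 in all 34 alternatives for 8c against 2c (0.080 to 0.225 over the other alternatives, 0.089 to 0.176 when a sample or an experiment was left out) and for 8c against 4c (0.088 to 0.187, and 0.107 to 0.159). For 4c against 2c it was below 0 in 11 of them (-0.035 to 0.076, and -0.042 to 0.047). Some of the alternatives could not change these medians. Leaving out the experiment block, changing the filter on dim probes or leaving out a sample of the third fraction returns the same differences for the members. Normexp and no filter on dim probes moved the median of all features between 8c and 2c to -0.107 and -0.147. Relative to the median of all features, the list's median for 8c against 2c lay between 0.061, with quantile normalization, and 0.293. The count of genes that differed between experiments was 22, 14 with quantile normalization, 3 with no filter on dim probes and 31 with normexp. It was 4 to 33 when a sample or an experiment was left out. The share over all features is not given for these alternatives. The test between experiments was not run within slides, without the experiment terms or around acinar transcripts. The causes were not tested. With 5 samples a group, the median standard error of a member was 0.08 on the log2 scale. A difference that missed the threshold is not shown to be absent.

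Without the replicate block, that is with the experiment left out of the model, there were 0 calls in each comparison, the medians were 0.146, 0.008 and 0.139, and 5 members were higher in 8c than in 2c at an unadjusted p under 0.05, against 2.26% of all features. The block changed no adjusted call.

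The 23 named genes gave 782 values in each comparison, including those of the alternatives that could not change a difference. Of the 782, the sign changed in 33 for 8c against 2c, 58 for 4c against 2c and 16 for 8c against 4c. None of these values passed in either fit, and 8, 9 and 3 of them moved by more than the standard error. With the slide as the block the changed values were Rpl10 0.003 and Rps4y2 0.055 (8c against 2c), Rplp2 -0.005 (8c against 4c). With the 75th percentile over all probes the changed values were Rpl10 0.071, Rps4x 0.035 and Rps4y2 0.051 (8c against 2c), Rpl3 0.068 and Rpl39 0.012 (4c against 2c). With the median as the scale the changed values were Rpl10 0.033 and Rps4y2 0.013 (8c against 2c), Rpl3 0.031 (4c against 2c). With quantile normalization the changed values were Rps4y2 0.011 and Rps6 -0.016 (8c against 2c), Rpl3 0.012 (4c against 2c), Rplp2 -0.066 (8c against 4c). With normexp (offset 50) the changed values were Rpl10 0.009 (8c against 2c), Rpl3 0.032 (4c against 2c). With the mean of the probes of a gene the changed values were Rpl10 0.001 (8c against 2c), Rpl29 -0.086, Rps19 -0.007 and Rps27a -0.011 (4c against 2c), Rplp2 -0.009 (8c against 4c). Within slide 1 the changed values were Rpl11 -0.001, Rps4y2 0.078 and Rps6 -0.077 (8c against 2c), Rpl15 -0.059, Rps19 -0.043 and Rps27a -0.018 (4c against 2c), Rplp0 -0.027 and Rplp2 -0.016 (8c against 4c). Within slide 2 the changed values were Rpl10 0.152 and Rps18 -0.024 (8c against 2c), Rpl29 -0.015, Rpl3 0.109, Rpl39 0.069, Rplp1 -0.011, Rps4y2 -0.023 and Rpsa -0.008 (4c against 2c), Rps4x -0.015 (8c against 4c). Without the 6 arrays with acinar transcripts the changed values were Rpl10 0.081 and Rps18 -0.025 (8c against 2c), Rpl15 -0.036, Rpl29 -0.033, Rpl30 -0.085 and Rps19 -0.040 (4c against 2c). With the acinar marker level as a covariate the changed values were Rpl29 -0.020, Rpl30 -0.040, Rplp1 -0.018, Rps19 -0.004 and Rps27a -0.022 (4c against 2c), Rpl8 0.027 (8c against 4c). When a sample or an experiment was left out, signs changed in the following. For 8c against 2c the ranges were Rpl10 -0.095 to 0.050, Rplp1 -0.003 to 0.119, Rps29 -0.001 to 0.110, Rps4y2 -0.115 to 0.053, Rps6 -0.019 to 0.084. For 4c against 2c the ranges were Rpl15 -0.040 to 0.119, Rpl29 -0.032 to 0.059, Rpl3 -0.032 to 0.070, Rpl30 -0.060 to 0.222, Rpl39 -0.128 to 0.002, Rplp1 -0.036 to 0.080, Rps19 -0.055 to 0.095, Rps27a -0.082 to 0.055. For 8c against 4c the ranges were Rpl8 -0.049 to 0.025, Rplp1 -0.003 to 0.107, Rplp2 -0.033 to 0.055.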
